A study of Mus musculus with 12 samples.

Results

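The kinesin motor genes of the mouse testis are described here across 12 RNA sequencing libraries. They were chosen by symbol alone, as every gene whose name begins with Kif or Kifc and a number, leaving out antisense and pseudogene entries. This gave 43 of the 21004 genes in the deposited table, 42 motors of 13 families and Kif1bp, which has no motor and was taken in by its name. The samples are whole testis of ICR mice, an outbred strain, aged 8 weeks, in 4 labelled groups of 3 libraries. One group received busulfan with L.J. at 10 mg/kg, one busulfan, one L.J. at 10 mg/kg, and one is the control. Busulfan alkylates DNA and kills dividing germ cells. What L.J. is remains unexplained in the labels, and neither the busulfan dose nor the interval to sampling is given there. Nor do they name the animals behind the libraries, so p-values measure the spread between these samples, which may be technical.

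Kinesins are proteins that use ATP to walk along microtubules or to take them apart at their ends. In dividing cells they build the spindle, move chromosomes and help to cut the cell in 2. In cells that carry a cilium or a flagellum they bring building material to its tip, and elsewhere they haul vesicles, organelles and messenger RNA. In the testis all 3 jobs occur, in dividing spermatogonia and spermatocytes, in spermatids that grow a tail and a manchette (the microtubule skirt that shapes the nucleus), and in the somatic cells around them. The members were therefore grouped as 15 division kinesins, 10 cilium kinesins and 17 cargo or other kinesins.

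The expression unit is FPKM, fragments scaled to transcript length and library total by the authors, so levels of different genes can be compared per length. FPKM summed to between 417242 and 535515 per library. With FPKM alone, the absolute depth is unknown. The busulfan and busulfan plus L.J. libraries stood apart from the others in markers of germ cell stage. Spermatid markers were highest and Sertoli cell markers lowest in the libraries labelled as treated with an agent that kills germ cells. Only the labels tell which libraries had busulfan, so every direction given below rests on them. All 12 elongating spermatid markers passed the test as higher in busulfan than in control, with a mean log2 level of 10.9 to 11.1 against 7.27 to 9.21. Their summed level was 46413 to 59465 FPKM in busulfan plus L.J., 40145 to 50028 in busulfan, 6092 to 28567 in L.J. and 2931 to 11400 in control libraries. All 12 Sertoli cell markers passed as lower, with a summed level of 514 to 586 FPKM in busulfan plus L.J., 489 to 565 in busulfan, 904 to 4540 in L.J. and 1096 to 2091 in control libraries. In whole tissue, fewer cells of a type and less RNA per cell cannot be told apart. The part of these marker shifts in the kinesin results was not tested. Within the L.J. group, replicate 2 had the highest and replicate 3 the lowest elongating spermatid level, and replicate 3 had the highest Sertoli level of all 12 libraries.

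Promoters of the kinesins are given with the matches to 5 short motifs counted in them. RefSeq promoter windows of GRCm38.p6 around a start were at hand for 34 of the 43 members. The 5 motifs searched, on both strands, were TTTGAA (the CHR element of cell cycle genes), CCAAT (the CCAAT box), GTTGCC (one side of the X-box that ciliary RFX factors bind), TGACGTCA (the full cAMP response element) and TGACG (its core). TGACG lies within TGACGTCA, and no other motif contains another. TTTGAA was found in the windows of 11 of 14 division kinesins (78.6%), against 20.2% of all 27025 genes. From 75 bases before to 24 after the start it was found in 8 of 14 (57.1%), against 6.09% of all genes. GTTGCC was found in 5 of 9 cilium kinesins (55.6%), against 14.1% of all genes and 16% of the genes tested for expression. TGACGTCA was found in 3 of 34 members (8.82%), Kif17, Kif18a and Kif5c, against 2.03% and 3.3%. TGACG was found in 8 of 14 division (57.1%), 4 of 9 cilium (44.4%) and 4 of 10 cargo kinesins (40%). It was found in 23% of all genes and 32% of those tested. CCAAT was found in 9 of 14 (64.3%), 5 of 9 (55.6%) and 2 of 10 (20%), against 41.1% and 43.2%. These are matches of letters and do not show that a factor binds.

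Below, capitals mark the motif letters, on either strand, in Kif17 and Kif2b, the largest rises, in Kif9, an abundant cilium kinesin, and in a choice of the other division genes; TGACG alone is not marked. Each reads 5′ to 3′ towards the gene. Kif17 lies at chr4:138262001-138262275 on the plus strand, in a window 11816 bases from the gene's first start in GENCODE; the capitals are TGACGTCA and GTTGCC.
Kif17: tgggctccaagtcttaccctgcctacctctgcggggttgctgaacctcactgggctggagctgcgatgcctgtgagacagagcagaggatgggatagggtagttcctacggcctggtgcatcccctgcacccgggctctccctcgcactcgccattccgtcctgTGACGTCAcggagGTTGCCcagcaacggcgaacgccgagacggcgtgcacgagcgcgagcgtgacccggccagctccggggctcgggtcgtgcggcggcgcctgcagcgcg
Kif2b lies at chr11:91577531-91577805 on the minus strand, and its capitals are a CCAAT box 44 bases before the start.
Kif2b: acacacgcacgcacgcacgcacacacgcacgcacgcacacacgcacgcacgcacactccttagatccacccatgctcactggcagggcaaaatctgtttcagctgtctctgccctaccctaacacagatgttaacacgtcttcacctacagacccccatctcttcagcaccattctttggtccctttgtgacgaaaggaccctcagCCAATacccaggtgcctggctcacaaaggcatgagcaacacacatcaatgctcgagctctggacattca
Kif9 lies at chr9:110476883-110476982 on the plus strand, and its capitals are GTTGCC just after the start.
Kif9: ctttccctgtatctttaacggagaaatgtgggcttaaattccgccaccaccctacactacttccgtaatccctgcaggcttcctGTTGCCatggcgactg
In Kif11 at chr19:37376307-37376406 on the plus strand, Kif22 at chr7:127042396-127042495 on the minus strand and Kif15 at chr9:122951006-122951105 on the plus strand, TTTGAA stands on the opposite strand and so reads TTCAAA; in Kif11 and Kif22 an inverted CCAAT box (ATTGG) stands before it.
Kif11: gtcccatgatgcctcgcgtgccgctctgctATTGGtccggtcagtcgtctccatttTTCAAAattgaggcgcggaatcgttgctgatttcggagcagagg
Kif22: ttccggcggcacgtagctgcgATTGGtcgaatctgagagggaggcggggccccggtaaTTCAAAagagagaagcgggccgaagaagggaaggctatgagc
Kif15: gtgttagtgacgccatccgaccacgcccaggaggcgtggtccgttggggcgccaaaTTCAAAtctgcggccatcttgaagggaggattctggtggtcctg
Kif20b at chr19:34922283-34922382 on the plus strand holds 2 adjoining copies.
Kif20b: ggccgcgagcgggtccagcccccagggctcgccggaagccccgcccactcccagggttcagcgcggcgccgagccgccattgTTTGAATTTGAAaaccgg
Kifc1 at chr17:33890609-33890708 on the minus strand and Kifc5b at chr17:26917016-26917115 on the plus strand are near-identical copies on chromosome 17, and both hold a pair of inverted CCAAT boxes.
Kifc1: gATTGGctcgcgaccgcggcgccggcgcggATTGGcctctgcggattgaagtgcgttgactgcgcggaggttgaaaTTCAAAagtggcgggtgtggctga
Kifc5b: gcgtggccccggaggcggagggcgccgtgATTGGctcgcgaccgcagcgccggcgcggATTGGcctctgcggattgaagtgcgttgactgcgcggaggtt

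Kinesin messenger RNA was dominated by a few genes. The 43 members summed to 1276 to 1302 FPKM in busulfan plus L.J., 1218 to 1344 in busulfan, 688 to 1137 in L.J. and 763 to 939 in control libraries. The groups given busulfan lay above all libraries without it. The 5 highest members held 66.9% ± 1.36 of this sum in busulfan plus L.J., 65.8% ± 1.87 in busulfan, 52.1% ± 7.80 in L.J. and 50.1% ± 3.47 in control libraries (SD, n = 3 each). By mean level over all libraries the order was Kif2b, Kif9, Kif2a, Kif27, Kif17, Kif2c, Kif3b, Kif3a and Kif20a. In busulfan it was Kif2b, Kif9, Kif17, Kif2a and Kif27, and in control libraries Kif9, Kif2a, Kif2b, Kif27 and Kif3b. The leading 3 of the control libraries did not differ beyond their spread, at 112 ± 11.4, 107 ± 7.05 and 94.5 ± 37.8 FPKM (SD, n = 3). Division kinesins held 52.8 to 55.9% of the members' FPKM in busulfan and 45.6 to 48.8% in control libraries. Kif2b and Kif2c weigh heavily in this share, with means of 332 and 114 FPKM in busulfan against 94.5 and 32.8 in control libraries. The median log2 change of the 15 division kinesins was −0.32, so the share of the class does not describe most of its genes. Cilium kinesins held 37.2 to 40.2% in busulfan and 35.0 to 38.7% in control libraries, and cargo kinesins 5.33 to 6.87% and 10.0 to 16.1%. Cargo kinesins held 5.34 to 5.95% in busulfan plus L.J. and 7.93 to 25.3% in L.J. libraries.

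**Figure D1:**
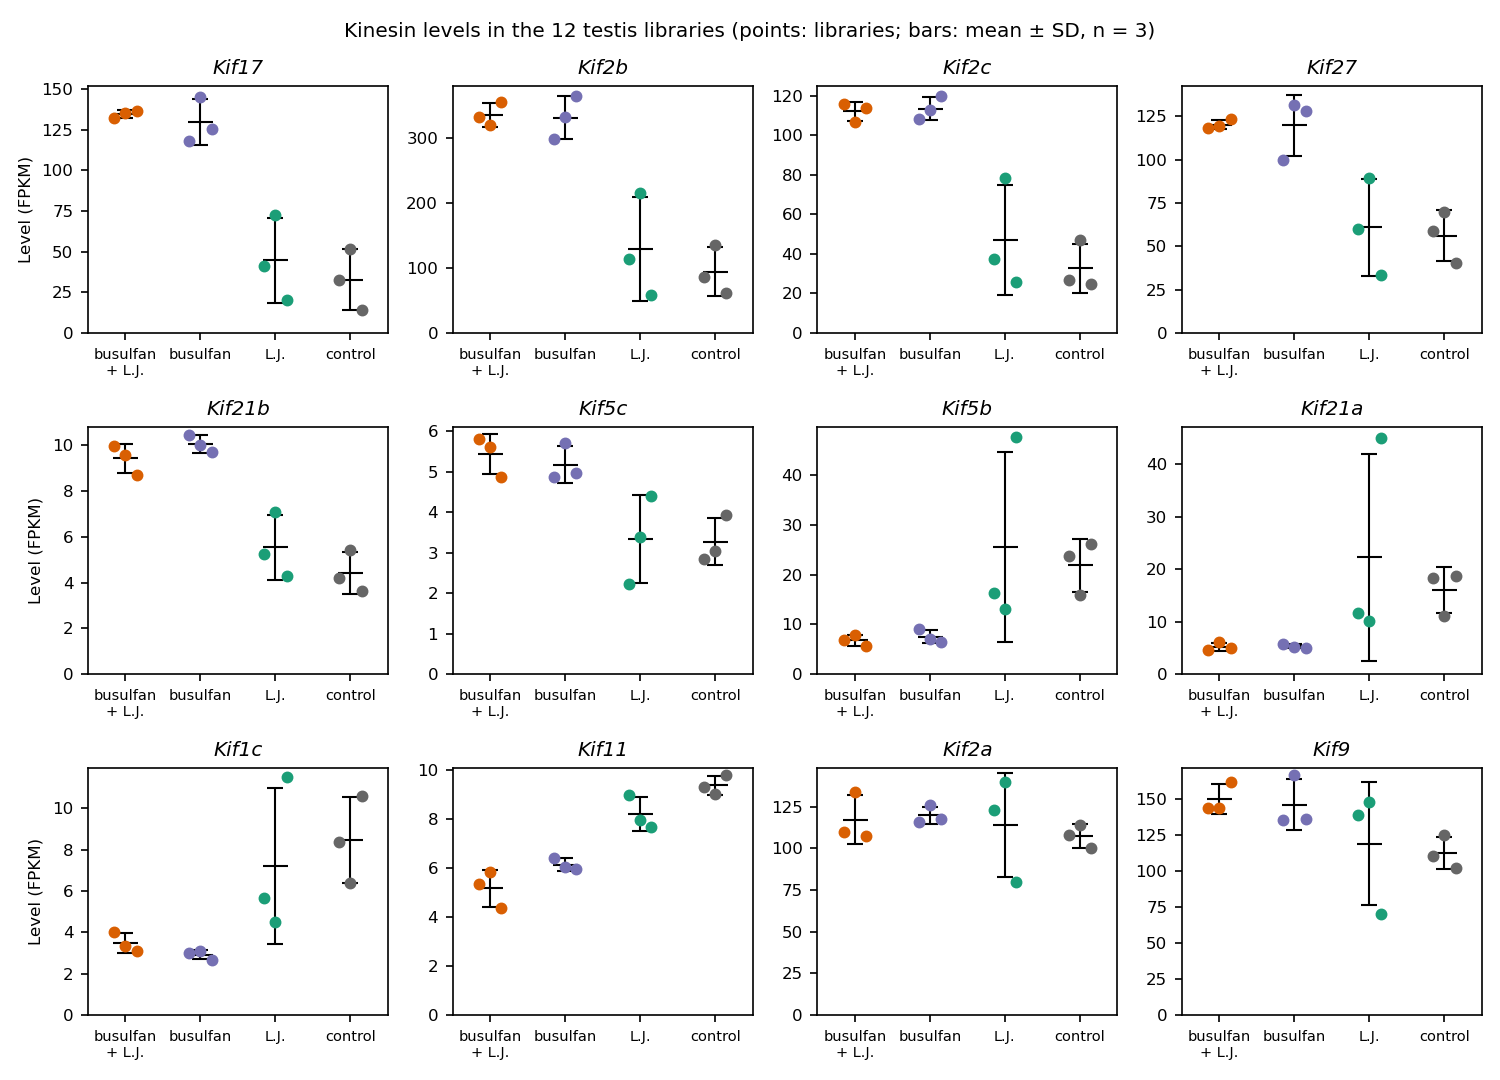
FPKM (vertical axes, from 0) of 12 kinesins in the libraries of 4 groups, with 1 point per library and bars for mean ± SD (n = 3). Kif17, Kif2b, Kif2c, Kif27, Kif21b and Kif5c are higher in all 6 libraries with busulfan than in any without it, Kif5b, Kif21a, Kif1c and Kif11 are lower in all 6, and Kif2a and Kif9 overlap between busulfan plus L.J. and L.J.

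Busulfan was compared with control to see which kinesins differ between the treated and untreated testis. Of the 39 members with at least 1 FPKM in at least 3 libraries, as deposited 7 rose, 15 fell and 17 did not pass an adjusted p of 0.05 (limma, Benjamini-Hochberg over all 14675 genes tested). Of these 39, 38 or 39 were at or above 1 FPKM in every library, and the exception was Kif13a. Over all genes 63.7% passed, 12.4% as higher and 51.4% as lower, so the called share of the members (56.4%, with 17.9% higher and 38.5% lower) is near the background. Groups did not overlap for 11 members that were higher (28.2%; all genes 16.1%) and 20 that were lower (51.3%; all genes 60.7%). All genes tested had a median log2 change of −0.51, and the members −0.32. Division kinesins had a median of −0.32 (3 higher, 6 lower of 15), cilium kinesins −0.16 (2 higher, 2 lower of 10) and cargo kinesins −0.56 (2 higher, 7 lower of 13 tested). Because the median of all genes is shifted, the leading changes are also given relative to it, and most of the falls are near that median.

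Among the cilium kinesins, Kif17 and Kif27 rose and, as deposited, Kif3c and Kif24 fell. Kif17 is a kinesin-2 that in mouse male germ cells carries the transcription co-activator ACT and in neurons carries receptor vesicles. Its values, listed like all others in the order of replicates 1 to 3, were 132, 135 and 137 FPKM in busulfan plus L.J., 118, 145 and 126 in busulfan, 41.3, 72.5 and 20.1 in L.J. and 32.9, 51.5 and 13.9 in control libraries. The 6 libraries with busulfan all exceeded 118 FPKM, and no library without it exceeded 72.5. The log2 change in busulfan was 2.13 ± 0.45 (SE; limma, adjusted p = 0.00488), or 2.63 relative to the median of all genes. Kif27, whose mouse form works with the kinase Fused in building motile cilia, stood at 118, 119 and 123 FPKM in busulfan plus L.J., 99.5, 132 and 128 in busulfan, 60.02, 89.5 and 33.5 in L.J. and 58.7, 69.7 and 40.1 in control libraries. It was higher in every library with busulfan (log2 change 1.10 ± 0.30, limma adjusted p = 0.0108), and without control replicate 3 the adjusted p was 0.05005. Reads of Kif27 may include those of a partly overlapping gene on the other strand, which covers 6.48% of its exon bases.

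Kif9, a motor of the central pair in mouse sperm and cilia, had the highest mean of the kinesins in control libraries, within the spread of Kif2a and Kif2b. It had 143, 144 and 162 FPKM in busulfan plus L.J., 135, 166 and 136 in busulfan, 139, 147 and 69.7 in L.J. and 110.2, 125 and 102 in control libraries. All 3 busulfan libraries lay above all 3 controls, but the log2 change of 0.37 ± 0.24 did not pass (limma, adjusted p = 0.197), and busulfan plus L.J. and L.J. libraries overlapped. Kif3a is the kinesin-2 subunit that drives intraflagellar transport, the cargo traffic of cilia, and in mouse spermatids it is needed for the tail. It had 32.1, 36.3 and 35.8 FPKM in busulfan plus L.J., 27.8, 39.2 and 33.2 in busulfan, 39.9, 40.3 and 30.2 in L.J. and 36.8, 33.04 and 31.6 in control libraries. These values overlapped in each pair of groups compared with and without busulfan, and the log2 change was −0.03 ± 0.16 (limma, adjusted p = 0.893). Its partner Kif3b averaged 44.7 ± 3.37 FPKM in busulfan and 54.1 ± 3.59 in control libraries (SD, n = 3), a log2 change of −0.27 ± 0.14 that missed the threshold (adjusted p = 0.113, limma).

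Kif3c, the third kinesin-2 subunit of this kind, had 2.11, 1.8 and 1.8 FPKM in busulfan plus L.J., 2.81, 1.83 and 2.08 in busulfan, 3.82, 3.3 and 5.06 in L.J. and 3.89, 3.47 and 4.59 in control libraries. The values with busulfan did not reach those without it. As deposited it fell by 0.63 on the log2 scale (adjusted p = 0.0126, limma), or −0.12 relative to the median of all genes. It was 0.69, the other direction, after scaling to Sertoli markers. All 12 of these markers fell in busulfan, so that scaling lifts most genes, to a median of 0.96 over all genes. A change of sign under it therefore says little about a single gene. The Kif3c call was lost without busulfan replicate 2 or control replicate 3 (adjusted p up to 0.0559, limma). A gene on the other strand covers 38.5% of the Kif3c exon bases, so its reads are uncertain. Kif24, which in human cells holds back cilium growth at the centriole, had 5.57, 6.15 and 5.23 FPKM in busulfan plus L.J., 7.76, 4.84 and 5.46 in busulfan, 9.6, 7.36 and 5.82 in L.J. and 9.11, 9.01 and 10.6 in control libraries. Busulfan libraries were all below controls, while busulfan plus L.J. and L.J. libraries overlapped. Kif24 fell by 0.61 as deposited (adjusted p = 0.0206, limma), was −0.10 relative to the median and 0.93 with Sertoli scaling (all genes 0.96). It missed the threshold without busulfan replicate 2 or 3 or control replicate 3 (adjusted p up to 0.0807, limma). The other 3 cilium kinesins, Kif6 and Kif19a of motile cilia and Kif7 of Hedgehog signalling, had log2 changes of −0.32, −0.05 and −0.33 and did not pass.

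Kif2b and Kif2c, microtubule depolymerases of the kinesin-13 family, showed the largest changes among the division kinesins. Kif2b, which in human cells corrects the attachment of chromosomes to the spindle, was the most abundant kinesin in all 6 libraries with busulfan. It had 333, 319.9 and 356 FPKM in busulfan plus L.J., 298, 332 and 364 in busulfan, 115, 216 and 58.1 in L.J. and 85.7, 136 and 61.7 in control libraries. The lowest value with busulfan was 298 FPKM and the highest without it 216 FPKM, in L.J. replicate 2. The log2 change was 1.87 ± 0.40 (limma, adjusted p = 0.00477), or 2.38 relative to the median of all genes. Kif2b was the only member whose annotated transcript has 1 exon, while the others had 7 to 49 exons with a median of 20 over all members.

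Kif2c, the depolymerase of centromeres (MCAK), had 116, 107 and 114 FPKM in busulfan plus L.J., 108, 113 and 119.99 in busulfan, 37.3, 78.4 and 25.7 in L.J. and 26.9, 46.95 and 24.6 in control libraries. Every library with busulfan lay above every library without it, and L.J. replicate 2 came nearest. The log2 change was 1.82 ± 0.34 (limma, adjusted p = 0.00386), or 2.33 relative to the median. Kif2a, the depolymerase of spindle poles and of neuronal branches, had 109.9, 134 and 108 FPKM in busulfan plus L.J., 116, 126 and 118 in busulfan, 123, 139.7 and 79.6 in L.J. and 108, 114 and 100.02 in control libraries. Its busulfan values lay just above the controls, and busulfan plus L.J. and L.J. libraries overlapped. The change of 0.16 ± 0.19 did not pass (limma, adjusted p = 0.486).

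Kif15, which helps Kif11 to hold the spindle poles apart, was the third division kinesin that rose. It had 24.8, 25.2 and 21.6 FPKM in busulfan plus L.J., 22.2, 24.6 and 26 in busulfan, 20.3, 20.1 and 11.8 in L.J. and 14.5, 18.6 and 14.9 in control libraries. The libraries with busulfan were above those without in each pair of groups. The log2 change of 0.58 ± 0.19 (limma, adjusted p = 0.0236) missed the threshold when busulfan replicate 2 or 3 or control replicate 1 or 3 was left out (adjusted p up to 0.0776). Kif11 itself, the motor that pushes the poles apart, had 5.35, 5.82 and 4.35 FPKM in busulfan plus L.J., 6.42, 6.02 and 5.97 in busulfan, 8.99, 7.95 and 7.65 in L.J. and 9.28, 9.03 and 9.8 in control libraries. All 6 libraries with busulfan were below all 6 without it. Kif11 fell by 0.54 on the log2 scale as deposited (adjusted p = 0.0086, limma), which is −0.03 relative to the median of all genes. It was 0.02 with median scaling and 1.00 with Sertoli scaling (all genes 0.96).

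The other 5 division kinesins that fell as deposited were Kif4, Kif22, Kif20a, Kif23 and Kifc1. The chromokinesins Kif4 and Kif22, which push chromosome arms, averaged 1.88 ± 0.304 and 8.03 ± 0.283 FPKM in busulfan, against 3.12 ± 0.691 and 11.1 ± 0.312 FPKM in control libraries (SD, n = 3). The midzone motors Kif20a and Kif23 averaged 27.6 ± 1.23 and 18.8 ± 2.32 FPKM in busulfan, against 39.95 ± 1.02 and 24.1 ± 1.57 FPKM in control libraries. Kifc1, which clusters spindle poles and in rat spermatids also works at the acrosome and nucleus, had 3.28, 3.48 and 3.67 FPKM in busulfan plus L.J., 4.05, 3.86 and 3.47 in busulfan, 5.37, 4.28 and 3.9 in L.J. and 5.63, 5.16 and 5.37 in control libraries. Groups did not overlap for any of these 5 between busulfan and control. Their log2 changes as deposited were −0.52 (Kif20a), −0.51 (Kif4), −0.42 (Kif22), −0.42 (Kifc1) and −0.35 (Kif23). All 5 were positive with Sertoli scaling, between 0.75 for Kif4 and 1.30 for Kif23. That scaling moved the median of all genes to 0.96, so this change of sign is not particular to them. Every one of the 5 missed the threshold in some fit that left out 1 library. For Kif20a these were busulfan replicate 3 and control replicate 3 (adjusted p up to 0.0679), for Kif22 busulfan replicate 2 or 3 or any control (up to 0.0646), and for Kifc1 busulfan replicate 2 or 3 or control replicate 1 or 3 (up to 0.0997). For Kif4 they were any busulfan replicate, busulfan plus L.J. replicate 1 or 2, or control replicate 1 or 3 (up to 0.142), and for Kif23 any library but L.J. replicates 2 and 3 (up to 0.192).

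Kifc5b, the mouse copy of Kifc1, had 2.11, 2.86 and 2.13 FPKM in busulfan plus L.J., 2.5, 2.34 and 1.92 in busulfan, 3.02, 2.5 and 1.92 in L.J. and 3.15, 3.04 and 3.58 in control libraries. Busulfan libraries were below controls, and its log2 change of −0.39 ± 0.17 did not pass (limma, adjusted p = 0.0606). Since 47.6% of the 50-base stretches of Kifc1 transcripts and 42.1% of those of Kifc5b occur in other genes, mostly in each other, the split of reads between them is uncertain. Kif18a, which in mouse is needed for chromosome alignment in male germ cells, had 5.86, 5.91 and 4.06 FPKM in busulfan plus L.J., 7.25, 5.82 and 6.64 in busulfan, 6.93, 7 and 5.14 in L.J. and 7.27, 7.37 and 7.63 in control libraries. It was lower in each busulfan library than in any control, but the log2 change of −0.16 ± 0.17 was within its error (limma, adjusted p = 0.43). The microtubule end motor Kif18b and the cytokinesis motors Kif14 and Kif20b had log2 changes of −0.29, −0.32 and −0.14, none past the threshold. Of the 8 division kinesins with TTTGAA near the start, printed in part above, Kif11, Kif22, Kif23, Kif4 and Kifc1 fell as deposited. Kif15 rose, and Kif18b and Kif20b did not pass. Over all genes 12.4% were higher and 51.4% lower, with a median log2 change of −0.51. A link between the motif and these changes was not tested.

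Cargo kinesins had low levels and moved in both directions, also within a family. Kif5b, the heavy chain of kinesin-1 that most tissues use, had 6.87, 7.82 and 5.6 FPKM in busulfan plus L.J., 8.98, 7.05 and 6.42 in busulfan, 16.3, 13.01 and 47.6 in L.J. and 23.7, 15.9 and 26.1 in control libraries. Libraries with busulfan were all below those without, and L.J. replicate 3 was the highest of all. As deposited Kif5b fell by 1.42 on the log2 scale (adjusted p = 0.00994, limma), or −0.91 relative to the median of all genes. With Sertoli scaling it was 0.18, where all genes had a median of 0.96. Kif5c, a kinesin-1 heavy chain best known from neurons, had 5.81, 5.6 and 4.87 FPKM in busulfan plus L.J., 4.86, 5.7 and 4.96 in busulfan, 2.23, 3.38 and 4.39 in L.J. and 2.84, 3.04 and 3.93 in control libraries. The groups did not overlap, with busulfan higher. The log2 change of 0.54 ± 0.20 (limma, adjusted p = 0.032) was not past the threshold without any 1 of the busulfan replicates or without control replicate 1 or 2 (adjusted p up to 0.105). Kif5a, the other neuronal heavy chain, had a log2 change of −0.47 and did not pass. Defining markers of neurons were near 0, with Snap25 and Syt1 at most 1.63 FPKM and Rbfox3 at most 2.53 FPKM in any library.

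Kif21a and Kif21b are kinesin-4 motors that restrain microtubule growth, and they moved in opposite directions. Kif21b had 9.98, 9.59 and 8.72 FPKM in busulfan plus L.J., 10.5, 10.03 and 9.7 in busulfan, 5.23, 7.09 and 4.3 in L.J. and 4.18, 5.42 and 3.64 in control libraries. All libraries with busulfan were above all without it, and the log2 change was 1.04 ± 0.18 (limma, adjusted p = 0.00381), or 1.55 relative to the median. Kif21a had 4.59, 6.06 and 4.89 FPKM in busulfan plus L.J., 5.79, 5.21 and 5.06 in busulfan, 11.6, 10.1 and 45.02 in L.J. and 18.3, 11.1 and 18.8 in control libraries. All libraries with busulfan were below all without it, with L.J. replicate 3 far above the rest. As deposited Kif21a fell by 1.39 (adjusted p = 0.0171, limma), or −0.88 relative to the median, and it was 0.16 with Sertoli scaling (all genes 0.96). The call was lost without control replicate 1 or 3 (adjusted p up to 0.0601).

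Kif1c, a kinesin-3 of Golgi and adhesion traffic, had 4.02, 3.35 and 3.11 FPKM in busulfan plus L.J., 2.99, 3.1 and 2.66 in busulfan, 5.65, 4.48 and 11.5 in L.J. and 8.38, 6.4 and 10.6 in control libraries. It was lower in every library with busulfan. The fall of 1.25 on the log2 scale as deposited (adjusted p = 0.00527, limma) was −0.74 relative to the median. It became 0.18 with Sertoli scaling, where all genes had a median of 0.96. Kif13b, a kinesin-3 that carries membrane scaffold proteins, had 3.02, 3.35 and 2.69 FPKM in busulfan plus L.J., 3.82, 3.53 and 3.26 in busulfan, 5.39, 4.87 and 7.89 in L.J. and 6.32, 5.74 and 7.32 in control libraries. Its groups did not overlap in either pair. As deposited it fell by 0.71 (adjusted p = 0.00771, limma), and it was 0.73, the other direction, with Sertoli scaling (all genes 0.96).

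Kif13a, which sorts endosomal receptors, was near the lower limit of the filter. It had 1.02, 0.75 and 0.96 FPKM in busulfan plus L.J., 1.23, 0.77 and 0.66 in busulfan, 1.1, 1.15 and 2.5 in L.J. and 1.9, 1.23 and 2.44 in control libraries. Busulfan and control libraries overlapped. It fell by 0.59 as deposited (adjusted p = 0.043, limma) and was 0.41 with Sertoli scaling (all genes 0.96). The call did not survive leaving out busulfan replicate 2 or 3, control replicate 1 or 3, or any 1 busulfan plus L.J. replicate (adjusted p up to 0.159, limma). Kifc2, a motor that walks towards the minus end and is best known from axons, had 2.91, 2.6 and 3.47 FPKM in busulfan plus L.J., 2.41, 2.33 and 2.2 in busulfan, 3.34, 3.93 and 5.06 in L.J. and 4.11, 3.81 and 5.05 in control libraries. Its busulfan values were all below its control values, and busulfan plus L.J. and L.J. libraries overlapped. It fell by 0.68 as deposited (adjusted p = 0.00772, limma), and it was 0.66, the other direction, with Sertoli scaling (all genes 0.96). Kif1b, a carrier of mitochondria and synaptic vesicle precursors, averaged 8.53 ± 0.294 FPKM in busulfan and 13.1 ± 1.03 FPKM in control libraries (SD, n = 3). It fell by 0.56 as deposited (adjusted p = 0.0103, limma), and was 0.01 with median and 1.03 with Sertoli scaling (all genes 0.96 with the latter). The vesicle carrier Kif1a, the junction motor Kifc3 and the endosome motor Kif16b had log2 changes of 0.37, 0.29 and −0.32 and did not pass.

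Kif1bp, which binds several kinesins and blocks some of them, averaged 21.4 ± 2.72 FPKM in busulfan and 22.3 ± 1.34 in control libraries (SD, n = 3), a difference within the spread. Its log2 change was −0.06 ± 0.13 (limma, adjusted p = 0.704). The 4 members left out of the tests, Kif12, Kif26a, Kif26b and Kif28, did not reach 1 FPKM in any library. Their means were 0.0533, 0.227, 0.627 and 0.243 FPKM in busulfan, and in the same order 0.0233, 0.653, 0.203 and 0.107 FPKM in control libraries. For other members a gene on the opposite strand covers part of the exon bases, 34.6% of Kif20a (Cdc23) and 16.7% of Kif4 (Pdzd11). No source used here says whether the counting used strand, so these levels may hold reads of the partner. Cdc23 and Pdzd11 themselves had log2 changes of −1.06 and −1.43 in busulfan against control.

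The make-up of a family within a library does not depend on how libraries are scaled to each other. In kinesin-13, Kif2b held 58.9% ± 2.37 of the family's FPKM in busulfan plus L.J., 57.99% ± 1.87 in busulfan, 41.2% ± 7.33 in L.J. and 37.7% ± 6.54 in control libraries (SD, n = 3 each). Kif2a held 20.5% ± 2.76, 21.03% ± 1.44, 40.6% ± 8.02 and 45.1% ± 6.98 in the same order of groups. The leading depolymerase was thus Kif2b in every library with busulfan, and Kif2a in L.J. replicates 1 and 3 and control replicates 1 and 3. In kinesin-2, Kif17 held 62.7% ± 1.13 in busulfan plus L.J., 61.6% ± 1.89 in busulfan, 30.7% ± 10.6 in L.J. and 24.99% ± 10.8 in control libraries. In kinesin-1, Kif5c held 37.97% ± 1.39, 36.2% ± 5.805, 12.04% ± 5.11 and 11.9% ± 2.38, again in that order, and Kif5b held 51.5% ± 2.65 in busulfan against 77.8% ± 2.63 in control libraries. Kif21a held 3.92% ± 0.7805 of kinesin-4 in busulfan against 20.1% ± 7.62 in control libraries, and Kif27 85.96% ± 2.75 against 67.4% ± 8.95. For these shares busulfan and control libraries did not overlap. The exact permutation test (two-sided) gave p = 0.1 for each, the smallest that 3 libraries against 3 allow, and 0.221 after Benjamini-Hochberg adjustment over the 64 tests of 16 shares in 4 comparisons, so none passed. Shares within a family sum to 100%, so they are not independent of each other.

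**Figure D2:**
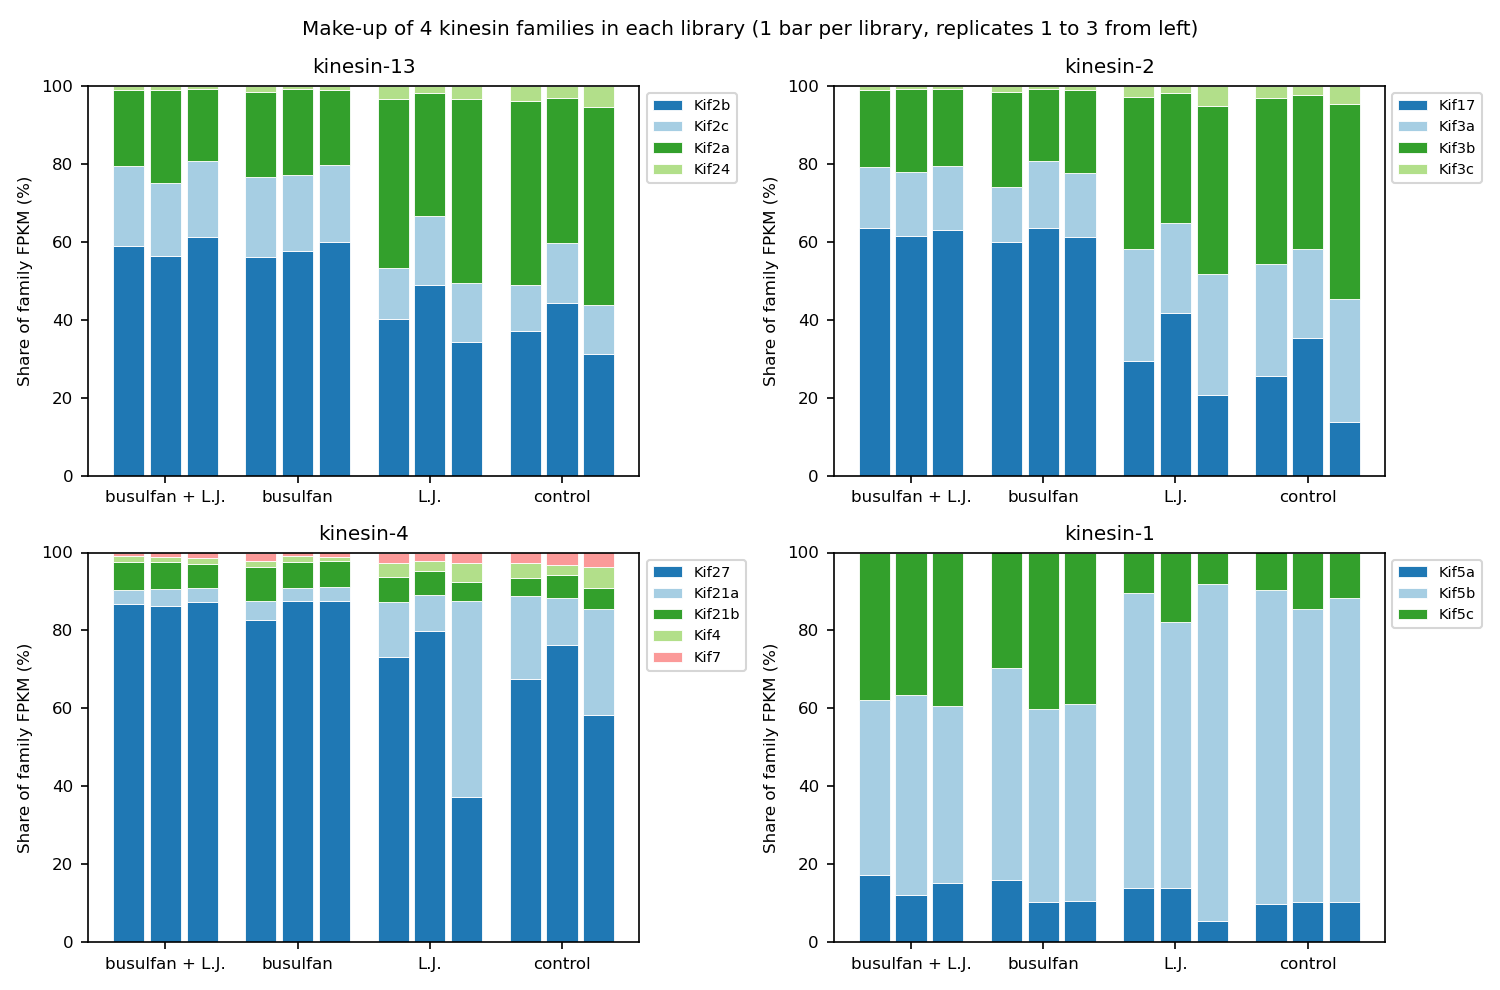
Share of family FPKM (vertical axes, percent) held by each member of kinesin-13, kinesin-2, kinesin-4 and kinesin-1, with 1 bar per library and replicates 1 to 3 from the left within a group. Kif2b and Kif17 hold over 56% of their families in each library with busulfan, and Kif5c has its highest shares there.

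How the libraries are scaled decides the direction of the weaker changes. As deposited, 11 of the 39 log2 changes in busulfan against control were positive, against 26 with quantile normalization, 29 with scaling to the library median, 29 with scaling to spermatocyte markers (added after the data were seen) and 39 with scaling to Sertoli markers. Of all genes that passed the threshold in either direction, 19.4%, 47%, 61%, 97.1% and 99.5% were higher, in the same order of settings. Kif17, Kif2b, Kif2c and Kif21b stayed past the threshold as higher under all 26 alternatives tried. Kif5b, Kif21a and Kif1c stayed negative, between −1.01 and −0.68, with quantile normalization. They turned to between 0.16 and 0.18 with Sertoli scaling, where all genes had a median of 0.96.

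**Figure D3:**
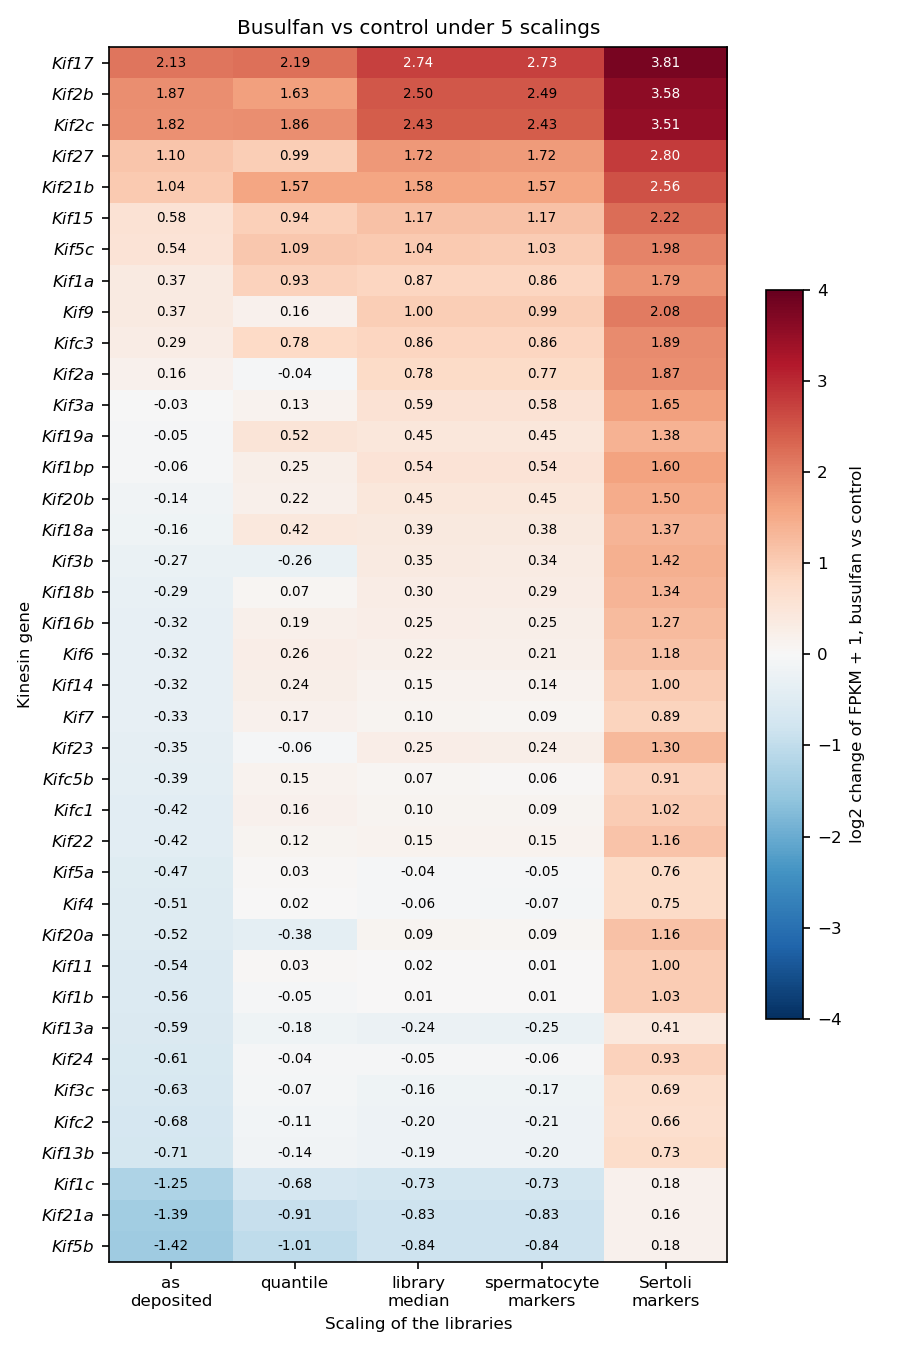
Log2 change of FPKM + 1 in busulfan against control for the 39 kinesins tested (rows) under 5 scalings (columns), with the value printed in each cell and red for higher in busulfan. Kif17, Kif2b, Kif2c, Kif27 and Kif21b are positive in all columns, and the blue of the lower rows is gone under scaling to Sertoli markers.

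Busulfan plus L.J. was compared with L.J., a second comparison of libraries with and without busulfan that shares none with the first. Of the 39 members 6 rose, 9 fell and 24 did not pass, or 38.5% called where all genes had 51.5% (11.7% higher, 39.8% lower). Groups did not overlap for 7 members that were higher (17.9%; all genes 13.8%) and 14 that were lower (35.9%; all genes 48.6%). All 15 called members had passed in the same direction in busulfan against control. The matching share over all genes was not worked out, and both comparisons use the same fit and its estimate of spread. The log2 changes of those that rose were 1.75 ± 0.45 for Kif17, 1.56 ± 0.40 for Kif2b, 1.39 ± 0.34 for Kif2c, 1.07 ± 0.30 for Kif27, 0.69 ± 0.18 for Kif21b and 0.60 ± 0.20 for Kif5c (SE; adjusted p between 0.0153 for Kif2c and 0.0279 for Kif5c, limma). Kif21a and Kif5b fell most as deposited, by 1.60 and 1.56, where the median of all genes was −0.40. The other falls as deposited were those of Kif13b, Kif3c, Kif1c, Kif11, Kif4, Kif1b and Kif22, between −0.79 and −0.47. With Sertoli scaling 0 members passed as lower in this comparison (all genes 0.184%). In a fit of these 2 groups alone, and in the fit without busulfan plus L.J. replicate 3, 0 members and 0% of all genes passed in either direction. At an unadjusted p under 0.05 these limma fits had 14 and 18 members, and 6787 and 7388 of all genes.

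Busulfan plus L.J. was set against busulfan to see whether L.J. changes kinesin levels in treated testis. None of the 39 members passed (0% of all genes did, and 0 members had an unadjusted p under 0.05 in limma, against 109 of all genes). The log2 changes lay between −0.30 for Kif19a and 0.26 for Kifc2, each with an SE of 0.13 to 0.45. Groups did not overlap for 2 members that were higher and 2 that were lower, or 5.13% each, where all genes had 3.39% and 5.19%. Kif17 averaged 135 ± 2.25 FPKM in busulfan plus L.J. and 129.7 ± 14.03 in busulfan libraries, and Kif2b 336 ± 18.4 and 332 ± 33.04 (SD, n = 3). These differences were smaller than the spread between libraries, which does not show that the groups are alike.

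L.J. against control also gave 0 members past the threshold (0% of all genes; 0 members and 715 genes at an unadjusted p under 0.05, limma). The changes lay between −0.34 for Kif18b and 0.44 for Kif17. Kif17 in L.J. libraries, at 44.6 ± 26.3 FPKM, overlapped with controls at 32.8 ± 18.8 (SD, n = 3). Groups did not overlap for 0 members that were higher and 4 that were lower (10.3%), where all genes had 1.1% and 7.97%. The interaction of both treatments, which asks whether busulfan acts differently with L.J., gave 0 members (0% of all genes; 0 members and 182 genes unadjusted, limma), with values from −0.43 for Kif2c to 0.47 for Kif1c and SEs of 0.18 to 0.64. When libraries were weighted gene by gene, 5 members passed as higher and 5 as lower in L.J. against control, and 3 and 2 in the interaction; all genes then had 7.56% and 27.6%, and 13.6% and 3.58%. Busulfan plus L.J. against control shares its controls with the first comparison, and 24 members passed (61.5%; all genes 66.5%), of which 7 rose and 17 fell (all genes 13% and 53.5%). Groups did not overlap for 9 members that were higher and 25 that were lower (23.1% and 64.1%; all genes 17.2% and 63.4%). Kif17 led the rises at 2.19 ± 0.45 (adjusted p = 0.00316, limma), and Kif5b had the lowest value as deposited, −1.54 ± 0.38.

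Genes that work with kinesins were taken from 3 lists. Over all genes 12.4% were higher and 51.4% lower in busulfan against control, and 11.7% and 39.8% in busulfan plus L.J. against L.J., and the lists are read against these shares. Of 14 light chains and adaptors, which tie kinesin-1 and others to cargo, and which include Kif1bp, 3 rose and 9 fell in busulfan against control (median −0.56; all genes −0.51). Klc3, a light chain known from rat spermatids, rose by 1.69 ± 0.30 (adjusted p = 0.00384, limma), and Kifap3, which binds the Kif3a and Kif3b pair, by 1.22 ± 0.26 (adjusted p = 0.00496, limma). Fez1, an adaptor known from neurons, was the third at 0.41. The largest falls as deposited were those of Fez2 (−1.46), Trak1 (−1.18) and Trak2 (−1.01), the last 2 being the links of kinesin-1 to mitochondria. So Klc3 and Kifap3 were higher, while as deposited Kif5b was lower and Kif3a had no call. Of the other kinesin-1 heavy chains, Kif5c also rose, by 0.54, and Kif5a at −0.47 did not pass. With Sertoli scaling Klc3 and Kifap3 were 3.02 and 2.91, and Kif5b and Kif3a 0.18 and 1.65, where all genes had 0.96.

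Of 18 spindle and midbody partners 0 rose and 10 fell (median −0.41), with Numa1 of the spindle poles at −1.13, Racgap1, the partner of Kif23, at −0.74, and Tpx2 at −0.73 as deposited. Relative to the median of all genes, Racgap1 and Tpx2 were −0.23 and −0.22. Cenpe, itself a centromere kinesin whose name falls outside the rule, had −0.03 ± 0.19 (adjusted p = 0.914, limma). Of 22 intraflagellar transport genes 2 rose, Cluap1 at 0.60 and Ift57 at 0.49, and 7 fell (median −0.34), led by Ift20 at −0.72, Ift80 at −0.56 and Ift46 at −0.54 as deposited. In busulfan plus L.J. against L.J. the higher and lower counts were 3 and 8, 0 and 6, and 0 and 7 in the same order of lists. The lower counts of the spindle and transport lists are near or below the shares of all genes in both comparisons. The falls in these lists depended on the scaling of the libraries. In busulfan against control 0 genes of any of the 3 lists passed as lower with scaling to Sertoli markers (all genes 0.225%). The medians were then 1.05, 1.27 and 1.36 in that order of lists, where all genes had 0.96. The lower counts were 2, 1 and 0 with median scaling (all genes 13.5%). With quantile normalization they were 3, 4 and 2 (all genes 18.8%), and the medians were −0.22, −0.197 and −0.15. Klc3, Kifap3, Fez1, Cluap1 and Ift57 passed as higher under all 4 other scalings.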

How the data were processed

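Messenger RNA of mouse testis was sequenced in 12 libraries. The aligner was Bowtie 0.12.2 and the build mm10, per the submitters' processing notes. FPKM values, 1 per gene and library with 2 decimals, are as deposited by the authors; no source used here gives the quantifier, annotation, strand setting or scaling. Libraries were grouped by their labels and columns by name, and 0 other columns of samples were set aside. Low FPKM values step in whole fragments for only 33 usable genes, so counts were not recovered. These genes, 2 to 16 per library, gave a relative depth of 0.959 to 1.02 between libraries. Only values within 25% of a gene's lowest were kept, which holds this estimate near equality. It therefore cannot show whether depth differs between libraries. The absolute depth and counting error are unknown.

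Genes with at least 1 FPKM in at least 3 libraries were kept (14675 of 21004). Values were tested as log2(FPKM + 1), so a log2 change of a low gene is smaller than that of its FPKM. One limma 3.58.1 fit with trend in R 4.3.3 held all 4 groups (8 residual degrees of freedom), with Benjamini-Hochberg adjustment over all genes tested in each comparison and a threshold of 0.05. It was tested on simulated data first. Shares within families were compared by exact permutation over libraries. Motifs were searched in RefSeq promoter windows, and exon overlap and shared 50-base stretches in GENCODE transcripts of GRCm38, the assembly behind mm10. Plots came from matplotlib 3.10.9 under Python 3.11.15.

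The members, roles, partner and marker lists and tests were chosen with earlier results of these data known. Values in every library are given for the 8 largest changes past the threshold in each direction in busulfan against control (7 rose), up to 3 in each direction in the other comparisons, the 3 members with the highest mean, and Kif3a, Kif9, Kif17, Kif18a, Kifc1, Kifc5b and Kif2b, which are known from male germ cells; Kif11 was added after its values were seen. Partners were named as the 3 largest changes past the threshold in each direction of a list, with Klc3, Kifap3 and Cenpe. Marker lists for spermatogonia (7 of 9 tested lower in busulfan than in control, 0 higher), meiotic spermatocytes (5 of 10 lower), round spermatids (5 of 8 higher), Leydig cells (7 of 7 lower), macrophages (6 of 6 lower), neurons and glia (1 of 3 tested lower) and ciliated epithelium (1 of 4 lower) were read beside those in the report. The alternatives tried were quantile normalization, libraries scaled to their median or to Sertoli markers, pseudocounts of 0.1 and 5, a filter of 5 FPKM or none, a log2 change of 1 or more as an added demand, limma in its robust form with no trend, weights per library, replicate number as a block, only the compared groups in the fit, leaving out L.J. replicates 2 and 3 together, and leaving out each library in turn. Gene-by-gene array weights, in place of the planned kind, and scaling to spermatocyte markers were added after the data were seen.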

Additional observations from a re-analysis of the deposited data

How the results depend on the processing

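Of 26 alternatives, 3, 2 and 4 moved the count of members that passed as higher by over 1.5 times in busulfan against control, busulfan plus L.J. against L.J. and busulfan plus L.J. against control, and 10, 8 and 6 moved the count that passed as lower. In busulfan against control (7 higher, 15 lower), scaling to the median gave 11 and 2. Scaling to Sertoli markers gave 28 and 0, and to spermatocyte markers 11 and 0. Quantile normalization left 1 lower, a log2 change of at least 1 left 3 lower, and gene-by-gene weights gave 23 lower. Of all 14675 genes, median, Sertoli and spermatocyte scaling called 5086 (61% of these higher), 6982 (99.5%) and 3374 (97.1%). Quantile normalization called 5209 (47%), the demand on the log2 change 3715 (29.4%) and weights 12669 (23%). In busulfan plus L.J. against L.J. (6 and 9), the lower count was 2 with quantile normalization and 4 with the median. It was 0 with Sertoli and 0 with spermatocyte markers, 20 with weights and 2 at a log2 change of at least 1. The fit of the groups compared only gave 0 and 0. In the same order these settings called 3544, 3779, 3723, 2634, 11114, 2574 and 0 of all genes. Of these calls 57.1%, 69.6%, 99.3%, 99.5%, 21.3% and 37.5% were higher in the first 6 settings. In busulfan plus L.J. against control (7 and 17), the higher count was 12, 15 and 14 with median, Sertoli and spermatocyte scaling. It was 4 at a log2 change of at least 1. The lower count was 1 with quantile normalization, 2, 0 and 0 with the 3 scalings and 3 at a log2 change of at least 1. The 3 scalings called 5950 (57.9% of these higher), 4664 (98.7%) and 3741 (95.7%) of all genes. Quantile normalization called 6013 (44%) and the demand on the log2 change 4192 (26.7%). Weights gave 5 higher and 5 lower in L.J. against control (all genes 7.56% and 27.6%). In the interaction they gave 3 and 2 (all genes 13.6% and 3.58%). Leaving out each library in turn gave 5 to 8 higher and 6 to 21 lower in busulfan against control (lower counts of 8, 8, 9 and 6 without busulfan replicate 2 or 3 and control replicate 1 or 3), 0 to 7 and 0 to 13 in busulfan plus L.J. against L.J. (0 without busulfan plus L.J. replicate 3), and 5 to 9 and 11 to 23 in busulfan plus L.J. against control. The fits that left out 1 library called 5842 to 10909 of all genes in busulfan against control. They called 0 to 9385 in busulfan plus L.J. against L.J. and 6973 to 11258 in busulfan plus L.J. against control. Apart from the settings' own construction, the cause of the moved counts was not tested.

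The median log2 change in busulfan against control, 0.15 for division and 0.17 for cilium kinesins with quantile normalization, turned positive there; with median scaling it was 0.25 and 0.401, with spermatocyte markers 0.24 and 0.39, and with Sertoli markers 1.304, 1.401 and, for cargo kinesins, 0.76. That of division kinesins was −0.19 with a pseudocount of 5. That of cargo kinesins was −0.24 with a pseudocount of 5, −0.43 without a filter, −0.44 at a minimum of 5 FPKM, −0.0532 with quantile normalization, −0.0402 with median and −0.0522 with spermatocyte scaling, and −0.69 with weights. Relative to all genes, the cargo median turned to 0.0551 with a pseudocount of 5, 0.0567 at a minimum of 5 FPKM, 0.103 with quantile normalization and 0.0277 without control replicate 3, the top of a range that reached down to −0.11 without busulfan replicate 1 when each library was left out, and the division median to −0.0672 without a filter. All genes had a median of 0.96 with Sertoli markers. Single members with a call in either setting turned positive as follows (log2 change, busulfan against control). With quantile normalization: Kifc1 0.16, Kif22 0.12, Kif4 0.0217, Kif11 0.0331. With median scaling: Kifc1 0.0997, Kif23 0.25, Kif1bp 0.54, Kif20a 0.0945, Kif22 0.15, Kif1b 0.015, Kif11 0.0169. With spermatocyte markers: Kifc1 0.0938, Kif23 0.24, Kif1bp 0.54, Kif20a 0.0878, Kif22 0.15, Kif1b 0.00849, Kif11 0.0107. With Sertoli markers: Kifc1 1.02, Kifc5b 0.91, Kif14 1.002, Kif18a 1.37, Kif19a 1.38, Kif21a 0.16, Kif5a 0.76, Kif13a 0.41, Kif23 1.304, Kif3c 0.69, Kif1bp 1.597, Kif20a 1.16, Kif5b 0.18, Kif24 0.93, Kif1c 0.18, Kif22 1.16, Kif16b 1.27, Kif7 0.89, Kifc2 0.66, Kif3a 1.65, Kif13b 0.73, Kif4 0.75, Kif20b 1.498, Kif1b 1.03, Kif11 1.001. 

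In no pair of groups did all 3 same-numbered pairs of libraries correlate above 0.1 in their deviations (5 of 18 correlations did). For busulfan and busulfan plus L.J. all were positive, at 0.247, 0.0915 and 0.121. With 3 libraries per group, these values cannot decide whether the numbers pair the samples. The correlations ran from −0.175 for replicate 1 of L.J. and control to 0.759 and 0.62 for their replicates 2 and 3. With a replicate block 7 members were higher and 16 lower in busulfan against control, where 9591 of all 14675 genes passed (19.5% of these higher). In L.J. against control 0 members and 0 of all genes passed with the block. Absolute depth is unknown, so no counting error limits are given for low members such as Kif13a and Kif4.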
